A study of Mus musculus with 4 samples.

Results

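Regulators of G-protein signaling (RGS) were examined in brain RNA of the Ids-ko mouse, a model of mucopolysaccharidosis type II in which the lysosomal enzyme iduronate-2-sulfatase is disrupted. The members were 10 Rgs genes taken by name, Rgs2, Rgs4, Rgs6, Rgs7, Rgs8, Rgs10, Rgs12, Rgs14, Rgs16 and Rgs17, looked up by Entrez ID in the deposited table of reads for each gene. All 10 were present, among 16 Rgs genes and 12700 genes in all. Members were taken by name, with no threshold on their values but with earlier results of these data known. The libraries are labelled CxH and MH for Ids-/- mice and CxWT and MWT for wild type littermates, all C57BL/6 and 9 months old. Cx is the cerebral cortex, and M is a dissection of midbrain, diencephalon (hypothalamus, thalamus and striatum) and hippocampus. Each of the 4 conditions had 1 polyA RNA library, made from RNA of 7 pooled mice, so there was no replicate and differences between mice were averaged within a pool.

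When a receptor is activated, the alpha subunit of its heterotrimeric G protein binds GTP and separates from the beta-gamma pair, and both parts signal to enzymes and ion channels. RGS proteins bind the active alpha subunit and speed up its GTP hydrolysis, which ends the signal. In the brain they set the duration of responses to dopamine, acetylcholine, opioids and glutamate, and the subfamilies differ in the domains that flank the RGS domain. The R4 members (Rgs2, Rgs4, Rgs8 and Rgs16) are small proteins with little beside that domain. The R7 members (Rgs6 and Rgs7) work as dimers with Gnb5. The R12 group holds Rgs10, Rgs12 and Rgs14, of which Rgs12 and Rgs14 also carry Ras-binding and GoLoco domains, and Rgs17 belongs to the RZ group, known for its action on Gz.

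Levels are given as RPM (reads scaled to library totals of 1000000 aligned reads) and differences as log2 ratios of RPM ± the standard error from counting alone. A gene was called up- or down-regulated, as in the methods of the study, when a likelihood ratio test on the reads of the 2 libraries gave an unadjusted p-value under 0.05 with a log2 ratio of 0.7 or more in either direction. With 1 library for each condition this test compares libraries and not conditions. Reads on genes ran from 16380080 in MWT to 23475080 in CxH, 56.6% to 61.0% of the aligned reads, and 3 reads, the smallest number taken as detected, came to 0.0779 to 0.104 RPM.

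Before the members, the libraries were set against their labels. Ids had 135 RPM in CxH and 354 RPM in CxWT, but 368 RPM in MH and 155 RPM in MWT, so that the library labelled MH held more Ids reads than the library labelled MWT. The 8 markers of cortical excitatory neurons summed to 1560.5 RPM in CxH and 1426 RPM in MH, against 197 RPM in CxWT and 142 RPM in MWT. The 11 measured markers of midbrain and diencephalon summed to 14.5 RPM in CxH and 13.6 RPM in MH, against 256 RPM in CxWT and 205 RPM in MWT, with 5 of the 11 at 3 reads or fewer in CxH, 3 in MH and none in the other two. Among them En1, a transcription factor of the midbrain, had 1 read in CxH, 0 in MH, 273 in CxWT and 126 in MWT. By these sums CxH lay near MH and CxWT near MWT, which goes against the labelled areas, and the contrast of genotypes as labelled cannot be told apart from this contrast of area markers. The pairs closest in the sums of these 2 lists but apart in Ids were those labelled as a comparison of areas, CxH vs. MH (log2 ratio of Ids -1.44 ± 0.024) and CxWT vs. MWT (1.19 ± 0.025). Whether libraries were exchanged was not tested. The 7 striatal markers also summed higher in CxH and MH (847 and 659 RPM) than in CxWT and MWT (309 and 322 RPM), whereas the 4 activated microglia markers were higher in CxH and MWT (116 and 111 RPM) than in CxWT and MH (36.3 and 38.4 RPM). Names of conditions, genotypes and areas below are those of the labels, with Cx for CxH vs. CxWT and M for MH vs. MWT, and ratios are given for all 6 pairs of libraries.

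**Figure D1:**
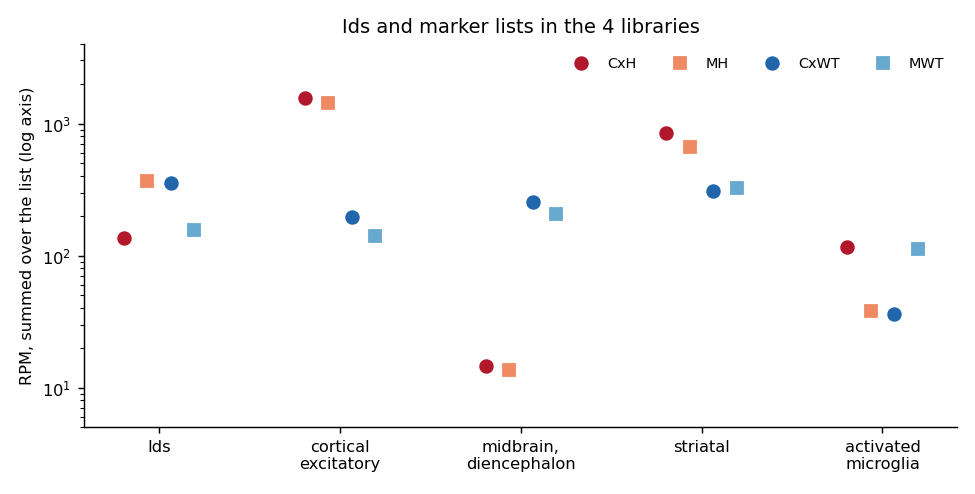
RPM of Ids and summed RPM of 4 marker lists (log axis) in the 4 libraries, 1 point for each library. Ids was high in MH and CxWT (368 and 354 RPM), and the cortical and midbrain lists split CxH and MH from CxWT and MWT.

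Of the 10 members, Rgs4, Rgs12 and Rgs14 were up-regulated and Rgs16 and Rgs17 down-regulated in CxH vs. CxWT. In MH vs. MWT, Rgs12 and Rgs14 were up-regulated and Rgs10, Rgs16 and Rgs17 down-regulated. Of all genes, 9.46% were called up and 11.5% down in CxH vs. CxWT, and 12.3% up and 12.7% down in MH vs. MWT. Rgs2, Rgs6, Rgs7 and Rgs8 were called in none of the 6 pairs, though with the correction for GC content and length Rgs8 passed the threshold in CxH vs. CxWT (-0.73) and MH vs. CxWT (-0.75). In size, the median log2 ratio was 0.71 for the members and 0.34 for all genes in CxH vs. CxWT, and 0.81 and 0.40 in MH vs. MWT. For the 6 other Rgs genes of the table it was 0.24 in CxH vs. CxWT and 0.62 in MH vs. MWT. Since members were chosen with earlier results known, their size beside all genes is not a test. The signed medians of the members were near 0 in Cx (0.00, with -0.09 over all genes) and at -0.27 in M (-0.07 over all genes), since members moved in both directions. In a bulk library, fewer cells of a type and less RNA for each cell cannot be told apart.

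**Figure D2:**
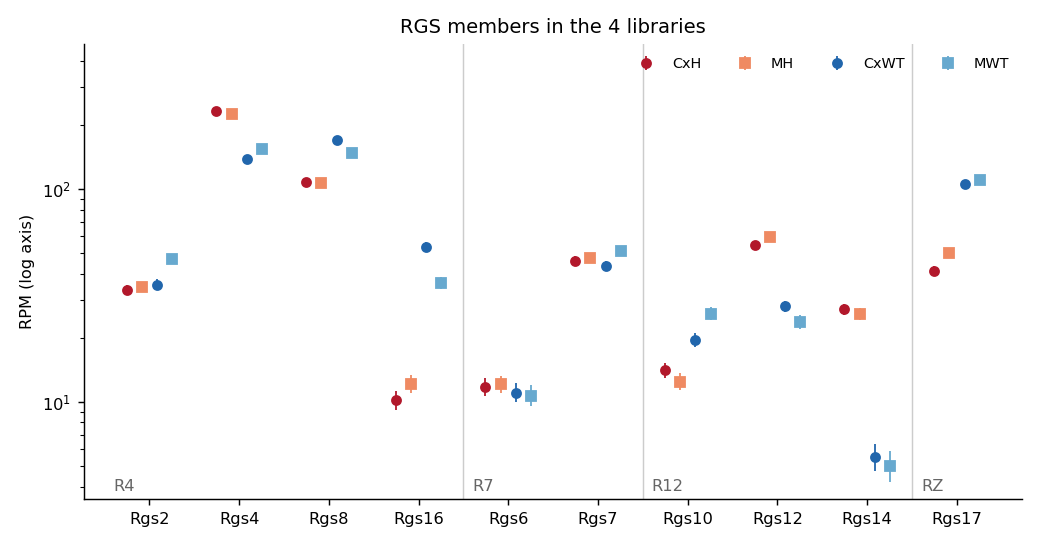
RPM of each member (log axis) in the 4 libraries, grouped by subfamily, with exact 95% intervals that cover counting error only. Rgs14 and Rgs16 showed the widest ranges, from 4.97 to 27.2 RPM and from 10.2 to 53.7 RPM, whereas the 4 points of Rgs6 and of Rgs7 lie close together.

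Among the R4 members, Rgs4 and Rgs16 moved in opposite directions. Rgs4, which acts on Gi, Go and Gq and is abundant in cortical and striatal neurons, is at chr1:171671608-171677773 on the minus strand of mm9. It had 232.5 RPM in CxH and 226 in MH, compared with 138 in CxWT and 153 in MWT, from 4441 to 8952 reads. CxH and MH were both above CxWT and MWT, with a log2 ratio of 0.75 ± 0.026 in Cx, just past the threshold, and of 0.56 ± 0.027 in M, short of it. The call in Cx was lost with an exact test that assumes a coefficient of variation of 0.2, and with the correction for GC content and length the ratio in M was 0.90, past the threshold. Rgs16, an inducible regulator of Gi and Gq known for its daily rhythm in the hypothalamic clock, is at chr1:155587479-155592598 on the plus strand. It had 10.2 RPM in CxH and 12.2 in MH, compared with 53.7 in CxWT and 36.2 in MWT. CxH and MH lay far below CxWT and MWT, 5.27-fold in Cx (log2 -2.40 ± 0.080) and 2.98-fold in M (log2 -1.58 ± 0.081). Of the 12700 genes, 104 had a lower log2 ratio than Rgs16 in CxH vs. CxWT and 256 in MH vs. MWT.

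The 150 bases upstream of the start of both genes are shown, read 5′ to 3′ on the strand of the gene from the RefSeq promoter table (GRCm38.p6), because these are the R4 members that were called, and in opposite directions. Capitals mark 4 motifs searched on both strands: the TATA box (spelled TATAAA), the CCAAT box (CCAAT itself), the GC box (spelled GGGCGG) and the CRE half-site (spelled TGACG), each also as its reverse complement. They were found in 7.57%, 24.5%, 28.6% and 13.3% of the 32851 windows of the table. Rgs4 lies at chr1:169747643-169747792 and Rgs16 at chr1:153740203-153740352 of that build:
Rgs4: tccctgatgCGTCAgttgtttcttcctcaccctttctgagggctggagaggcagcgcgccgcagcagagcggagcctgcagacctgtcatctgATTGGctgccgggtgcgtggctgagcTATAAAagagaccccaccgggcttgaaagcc
Rgs16: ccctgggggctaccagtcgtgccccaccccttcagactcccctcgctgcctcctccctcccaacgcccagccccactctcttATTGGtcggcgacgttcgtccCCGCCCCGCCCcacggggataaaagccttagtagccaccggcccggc

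The Rgs4 window held a TATA box 31 to 26 bases before the start, a CCAAT box and a CRE half-site, and its GC content was 60.7%. The Rgs16 window held a CCAAT box and 2 GC boxes that overlap by 1 base, with 69.3% GC, and TATAAA was not among its letters. The median window of the table had 54.0% GC. A match is a description of the letters and not a site of binding.

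The other R4 members were not called. Rgs8, which acts on Gi and Go and speeds the gating of GIRK channels, is at chr1:155500155-155544797 on the plus strand of mm9. It had 108 RPM in CxH and 106.5 in MH, compared with 170.0 in CxWT and 147 in MWT. CxH and MH were both below CxWT and MWT, but neither log2 ratio, -0.66 ± 0.029 for Cx and -0.47 ± 0.032 for M, reached the threshold. Of the 30-base words in its transcripts, 14 of 6687 also occur in another gene, and for Rgs17 15 of 8308, against 0 for the other members. Rgs2, a regulator with a preference for Gq, is at chr1:145846468-145851291 on the minus strand. It had 33.5 RPM in CxH and 34.7 in MH, compared with 35.6 in CxWT and 47.1 in MWT. The MWT library was high and the other 3 had overlapping intervals, so that the ratio was -0.09 ± 0.058 in Cx and -0.44 ± 0.056 in M. Corrected for GC content and length, the latter was -0.10, so that MWT stood apart less.

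The R7 members were not called. Rgs7, which with Gnb5 controls GIRK channels and Go signaling at the membrane, is at chr1:176989867-177421261 on the minus strand. It had 46.0 RPM in CxH and 47.6 in MH, compared with 43.6 in CxWT and 50.9 in MWT, and as scaled by aligned reads was the only member for which CxH and MH were neither both above nor both below CxWT and MWT. Its log2 ratios were 0.08 ± 0.051 in Cx and -0.10 ± 0.051 in M, or 0.27 and 0.39 corrected for GC content and length. Rgs6, its close relative, is at chr12:83717912-84259755 on the plus strand and overlaps the gene Gm10006 on the same strand. It had 11.8 RPM in CxH and 12.1 in MH, compared with 11.0 in CxWT and 10.7 in MWT, and all 4 intervals overlapped. Its Cx ratio was 0.09 ± 0.101 and its M ratio 0.17 ± 0.106, and the 95% interval of the latter ran from -0.04 to 0.38.

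In the R12 group, Rgs14 had the highest ratio of any member. Rgs14, a scaffold for G-protein and Ras signaling known from pyramidal neurons of hippocampal area CA2, is at chr13:55471093-55486048 on the plus strand of mm9. It had 27.2 RPM in CxH and 25.8 in MH, compared with 5.50 in CxWT and 4.97 in MWT, that is 1046 and 964 reads compared with 185 and 144. CxH and MH were close to each other and far above CxWT and MWT, 4.94-fold in Cx (log2 2.30 ± 0.115) and 5.19-fold in M (log2 2.37 ± 0.129). Only 74 genes had a higher log2 ratio in CxH vs. CxWT and 95 in MH vs. MWT. Of the 8 cortical excitatory markers, 7 were called up in Cx and 7 in M, with a median log2 ratio of 3.19 for Cx and 3.53 for M, and their part in this result was not tested. The 2 measured hippocampal markers were Prox1 and C1ql2, from a list not made for area CA2. They summed to 19.2 RPM in CxH and 23.3 RPM in MH, compared with 33.1 RPM in CxWT and 25.7 RPM in MWT, and their part was not tested either.

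Rgs12, the largest member, with a PDZ domain beside its Ras-binding and GoLoco domains, is at chr5:35292094-35382293 on the plus strand. It had 54.4 RPM in CxH and 59.5 in MH, compared with 28.1 in CxWT and 23.7 in MWT. CxH and MH were both above CxWT and MWT, 1.94-fold in Cx (log2 0.95 ± 0.057) and 2.51-fold in M (log2 1.33 ± 0.063). Rgs10, a short RGS protein of microglia and neurons, is at chr7:135517135-135562272 on the minus strand and overlaps Gm15503, a noncoding gene on the same strand. It had 14.1 RPM in CxH and 12.4 in MH, compared with 19.5 in CxWT and 25.9 in MWT, and was down-regulated in M (log2 -1.06 ± 0.085) and not called in Cx (-0.47 ± 0.084). Corrected for GC content and length, its log2 ratio in M was -0.70, just short of the threshold. The 9 microglia markers summed to 545 RPM in CxH and 339 RPM in MH, compared with 285 RPM in CxWT and 422 RPM in MWT. Their part in the ratios of Rgs10 was not tested.

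The upstream window of Rgs12 is shown as that of an up-regulated member with neither a TATA box nor a CCAAT box. It is the first of the 2 starts in the table, at chr5:34949298-34949447 of GRCm38.p6, with the same motifs in capitals:
Rgs12: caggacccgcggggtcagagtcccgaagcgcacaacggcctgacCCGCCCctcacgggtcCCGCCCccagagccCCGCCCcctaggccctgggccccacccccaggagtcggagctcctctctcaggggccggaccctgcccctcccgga

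It held 3 GC boxes and had 76.7% GC. The window of Rgs10 also held GC boxes, 2 of them, and no other of the 4 motifs.

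Rgs17, the RZ member, is at chr10:4424141-4520878 on the plus strand of mm9 and was down-regulated in Cx and M. It had 41.3 RPM in CxH and 50.1 in MH, compared with 106 in CxWT and 110.1 in MWT. CxWT and MWT were within 1.04-fold of each other, and CxH and MH were lower, 2.57-fold in Cx (log2 -1.36 ± 0.044) and 2.20-fold in M (log2 -1.14 ± 0.042). Its longest transcript, of 8191 bases, had the lowest GC content of the members, 36.9%. Corrected for GC content and length, the log2 ratios were -0.83 in Cx and -0.80 in M, past the threshold in these comparisons. The 4 oligodendrocyte markers also had log2 ratios below 0, all 4 called down in Cx and 2 in M, with a median of -1.08 for Cx and -0.55 for M, and their part was not tested. Its upstream window, GC-rich unlike its transcript, is at chr10:5922401-5922550 on the minus strand of GRCm38.p6, the other strand from that of the mm9 annotation:
Rgs17: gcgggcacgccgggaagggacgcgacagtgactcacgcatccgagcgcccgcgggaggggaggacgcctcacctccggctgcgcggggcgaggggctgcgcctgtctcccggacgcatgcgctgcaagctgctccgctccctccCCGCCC

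It had 76.7% GC, 21 CG dinucleotides against a median of 4 over all windows, and a GC box as its last 6 bases. Over the 9 members in the promoter table, which held 12 of their starts, a GC box stood upstream of 5: Rgs12, up-regulated in both comparisons, Rgs16 and Rgs17, down-regulated in both, Rgs10, down-regulated in M, and Rgs2, which was not called.

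Read across the 4 libraries, most members had CxH and MH on the same side of CxWT and MWT. For Rgs4, Rgs6, Rgs12 and Rgs14, 4 of 10, CxH and MH were both above CxWT and MWT, though for Rgs6 within counting error, as for 24.3% of all genes. For Rgs2, Rgs8, Rgs10, Rgs16 and Rgs17, 5 of 10, both were below, as for 36.9% of all genes. The places of Rgs2 and Rgs7 depended on the setting. For Rgs2 the ratio in Cx turned from -0.09 to 0.01 with TMM factors and to 0.19 with the correction for GC content and length, and for Rgs7 the ratio in M turned from -0.10 to 0.39 with that correction, which put CxH and MH above CxWT and MWT. The log2 ratios in Cx and in M had the same sign for 9 members, and for 72.8% of all genes. The widest gap between the log2 ratios in Cx and M was that of Rgs16 (-0.82 ± 0.114), where the error again covers counting only, so that a difference between areas could not be tested over animals.

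**Figure D3:**
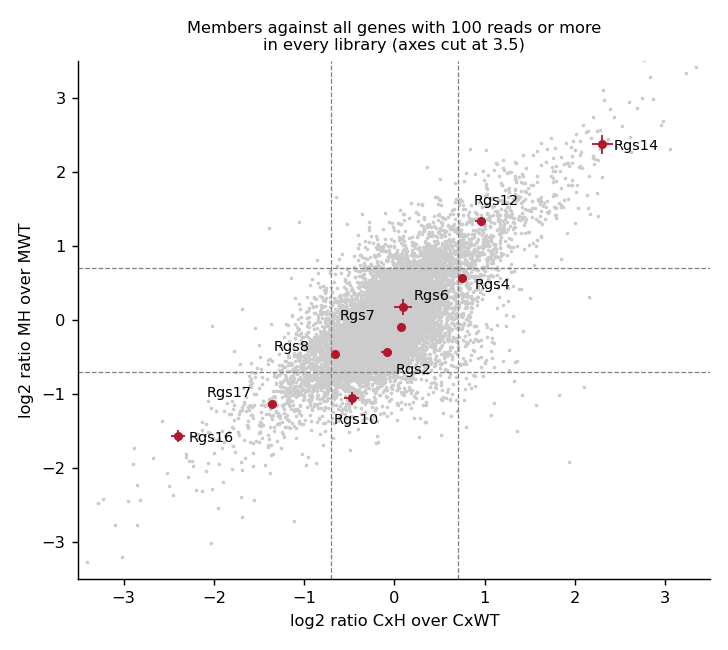
Log2 ratio of each member in CxH vs. CxWT (x axis) and MH vs. MWT (y axis), with standard errors from counting, over grey points for 11010 genes that had 100 reads or more in each library. Dashed lines mark the threshold of 0.7, and Rgs14 and Rgs12 lie past it at the upper right, Rgs16 and Rgs17 at the lower left.

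In the pairs labelled as areas within a genotype, no member was called. Of the 8 cortical excitatory markers, none was called in either pair. Of the 11 midbrain and diencephalon markers, 3 were called in CxH vs. MH, all on few reads. These were En2 (28 and 10 reads), which was up, and Tph2 (19 and 36) and Oxt (1 and 6), which were down. In CxWT vs. MWT 2 were called, both up. In CxH vs. MH, where 3.5% of all genes were called, the 10 log2 ratios ran from -0.28 (Rgs17) to 0.18 (Rgs10), with a median size of 0.06 against 0.20 over all genes. In CxWT vs. MWT, where 7.54% were called, they ran from -0.41 (Rgs10) to 0.57 (Rgs16), with a median size of 0.22 against 0.24. For 8 of 10 members, the Cx and M ratios were both larger in size than these 2 ratios, as for 35.2% of all genes. Rgs2 and Rgs7 were the exceptions as scaled by aligned reads. Rgs6, within counting error, was another with column totals or the GC and length correction, and with the latter Rgs7 was not. Rgs10 was another with column totals, TMM factors or DESeq2 size factors. With TMM factors its ratio was -0.38 in Cx and -0.46 in CxWT vs. MWT.

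The remaining pairs crossed genotype and area, joining libraries with similar Ids levels. In CxH vs. MWT, where 30.7% of all genes were called, Rgs12 (1.20 ± 0.064) and Rgs14 (2.45 ± 0.128) were up-regulated and Rgs10 (-0.88 ± 0.081), Rgs16 (-1.83 ± 0.085) and Rgs17 (-1.41 ± 0.044) down-regulated. In MH vs. CxWT, where 15.3% were called, Rgs4 (0.71 ± 0.026), Rgs12 (1.08 ± 0.056) and Rgs14 (2.23 ± 0.116) were up-regulated and Rgs16 (-2.14 ± 0.076) and Rgs17 (-1.08 ± 0.041) down-regulated. Ids itself had log2 ratios of -0.20 ± 0.029 and 0.06 ± 0.018 in these pairs, and Rgs12, Rgs14, Rgs16 and Rgs17 were called in both. Corrected for GC content and length, the ratios in CxH vs. MWT were -0.69 for Rgs17 and -0.69 for Rgs10, short of the threshold, and 1.11 for Rgs4, past it. These pairs share libraries with the comparisons above and are not independent of them.

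**Figure D4:**
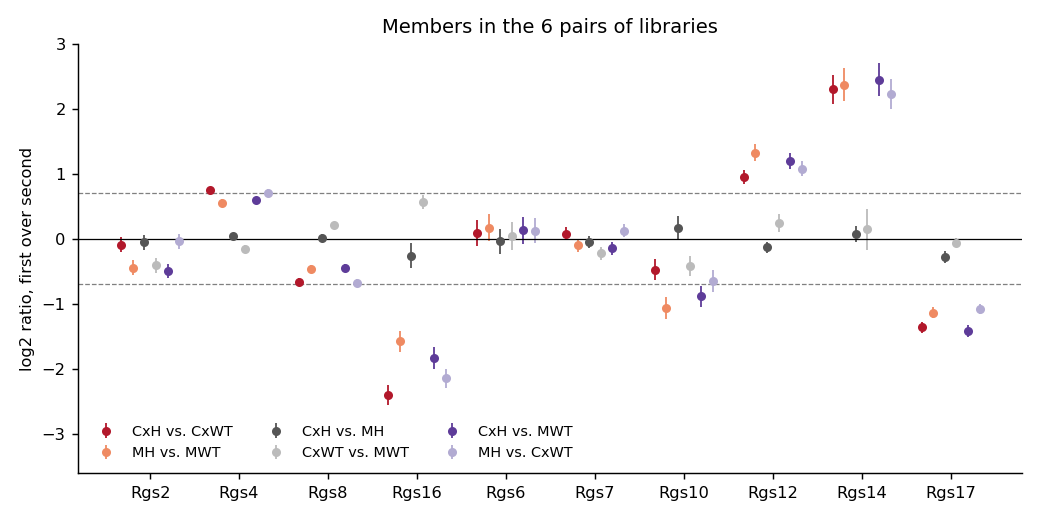
Log2 ratios of the members in the 6 pairs of libraries, with 95% intervals from counting and dashed lines at the threshold of 0.7. Grey points, the pairs labelled as areas within a genotype, all lie within the threshold, between -0.41 and 0.57.

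The shares of the members within their own reads differed between libraries with similar totals for the 10. The 6 other Rgs genes of the table are not in these totals. Among them Rgs9 had 105 RPM in CxH and 112 in MH, compared with 61.8 in CxWT and 52.4 in MWT. The 10 members together had 579 RPM in CxH and 587 in MH, compared with 611 in CxWT and 610.2 in MWT. Rgs4 made up 40.2% of their reads in CxH (exact 95% interval 39.5 to 40.8) and 38.5% in MH, against 22.6% in CxWT and 25.1% in MWT. Rgs17 made up 7.14% in CxH and 8.53% in MH, against 17.3% in CxWT and 18.0% in MWT. By reads Rgs8 took the largest share in CxWT, 27.8%. Long transcripts weigh more in such shares, and per kilobase the share in CxWT was 24.8% for Rgs4, 15.4% for Rgs8 and 6.83% for Rgs17. Per kilobase Rgs4 had 40.9% in CxH and Rgs17 2.61%.

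Levels were also ordered per kilobase of the longest protein-coding transcript, an order that depends on the length of each gene model. The model of Rgs7 had 1418 bases, 1410 of them coding. That of Rgs8 had 5818 with 543 coding, and that of Rgs17 had 8191 with 693 coding. A short model raises the level per kilobase, and the place of Rgs7 was not tested with another length. Rgs4 was first in every library, from 46.9 RPM per kb in CxWT to 79.1 in CxH, and Rgs7 second, from 30.8 in CxWT to 35.9 in MWT. Rgs16 came last in CxH (4.35 RPM per kb) and MH (5.20), but at place 4 in CxWT (22.9) and place 6 in MWT (15.5). Rgs14 came last in CxWT (2.34) and MWT (2.11), but at place 5 in CxH (11.5) and place 6 in MH (11.0). Of the 9 pairs of neighbours in the order, the intervals overlapped in 3 in CxH and 4 in MH, compared with 3 in CxWT and 2 in MWT. These were Rgs14 with Rgs2, Rgs6 with Rgs17 and Rgs17 with Rgs16 in CxH, and Rgs7 with Rgs8, Rgs16 with Rgs10 and Rgs6 with Rgs12 in CxWT. In MH they were Rgs2 with Rgs14, Rgs14 with Rgs12, Rgs17 with Rgs6 and Rgs6 with Rgs16, and in MWT Rgs2 with Rgs16 and Rgs6 with Rgs12. Those neighbours, among them Rgs16 at its last place in CxH and MH, were not separated by counting error.

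The 3 members with the widest range over the libraries were each set beside the genes of nearest pattern, by Euclidean distance between centred log2 RPM over the 4 libraries, among 11010 genes. Nearest to Rgs14 were Camk2a (distance 0.13), Lamp5 (0.13) and Dkk3 (0.17). In Cx these had log2 ratios of 2.26, 2.36 and 2.22, and in M of 2.38, 2.44 and 2.17. Nearest to Rgs16 were Plekhd1 (0.16), Epn3 (0.23) and Zfhx3 (0.27), and nearest to Rgs17 were Tspan2 (0.03), Ermn (0.08) and Magee2 (0.08). With 4 points for each gene, many genes can come close to any pattern.

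Of the 11 other Rgs genes listed, 6 were in the table. Rgs9, the R7 member of striatal neurons, was up-regulated in Cx and M, with 105 RPM in CxH and 112 in MH, compared with 61.8 in CxWT and 52.4 in MWT (log2 0.76 ± 0.039 and 1.10 ± 0.043). Of the 7 striatal markers, 5 were called up in Cx and 5 in M, with a median log2 ratio of 1.29 for Cx and 0.93 for M and with Tac1 called down in M (-0.96), and their part was not tested. Rgs20, an RZ member like Rgs17, was up-regulated in Cx (0.84 ± 0.096) and had a log2 ratio of 0.10 ± 0.089 in M. Rgs11, another R7 member, was up-regulated in M (1.29 ± 0.094) and in CxWT vs. MWT (0.83 ± 0.100), since its level of 10.7 RPM in MWT stood apart from 18.9 to 26.1 RPM in the other libraries. It was also up-regulated in CxH vs. MWT (0.89 ± 0.097), and corrected for GC content and length only the call in M was left (1.09, with 0.64 and 0.51 in the other pairs). Rgs3, an R4 member, was down-regulated in M (-0.71 ± 0.110) with -0.43 ± 0.105 in Cx. Rgs5, a marker of pericytes, had 0.06 ± 0.066 and -0.16 ± 0.066. Rgs19, an RZ member, had 0.04 ± 0.095 and -0.54 ± 0.099, and neither was called in any pair. The 7 pericyte and endothelial markers summed to 156 RPM in CxH and 118 RPM in MH, compared with 104 RPM in CxWT and 108 RPM in MWT.

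**Figure D5:**
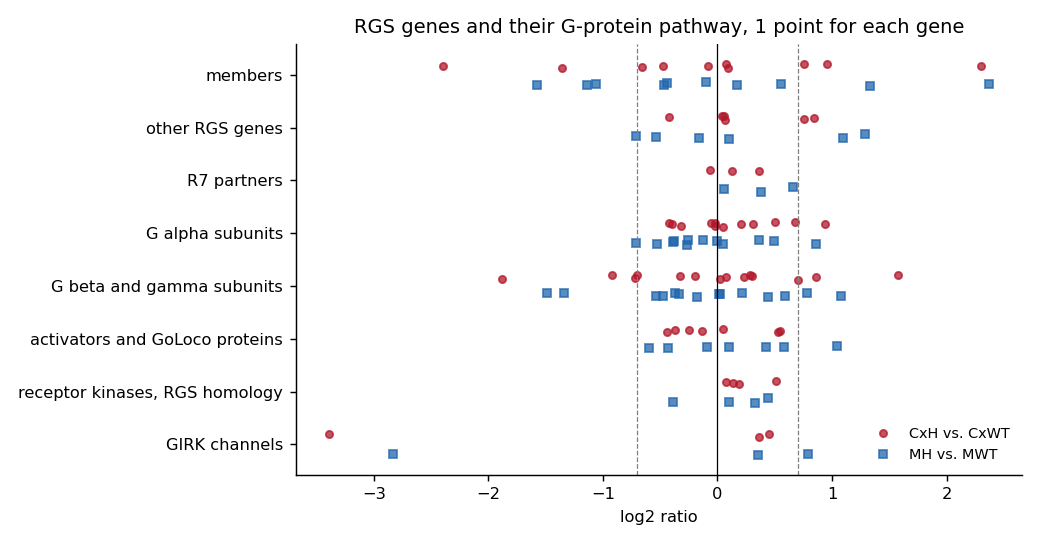
Log2 ratios of the members, the other Rgs genes and 6 lists of G-protein pathway genes in CxH vs. CxWT (circles) and MH vs. MWT (squares), 1 point for each gene and dashed lines at 0.7. The members spread from -2.40 to 2.37, whereas the G alpha subunits stay between -0.72 and 0.94.

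The alpha subunits are the targets of RGS proteins. Of 12 measured G alpha subunits, 1 was up-regulated in Cx (9.46% of all genes were), Gna15 of the Gq class (0.94 ± 0.231, from 125 and 57 reads), and none down, with Gna13 lowest at -0.42 ± 0.042. In M, Gnaz, the alpha subunit of Gz, was up-regulated (0.86 ± 0.074) and Gnas, the alpha subunit of Gs, down-regulated (-0.72 ± 0.016). Corrected for GC content and length, Gna15 (0.69 in Cx) and Gnaz (0.60 in M) fell short of the threshold, and Gna12 (-0.75 in M) passed it. The list's median was 0.01 in Cx, with -0.19 in M.

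Among 14 measured beta and gamma subunits, Cx had 3 up-regulated and 4 down-regulated, while M had 2 up and 2 down, beside the shares of all genes given above (9.46% and 11.5%, and 12.3% and 12.7%). Corrected for GC content and length, 1 was above and 2 below the threshold in Cx. Gng7, the gamma subunit that pairs with Golf in striatal neurons, was highest in Cx and M (1.58 ± 0.026 and 1.08 ± 0.027). Gng11 was lowest among those with at least 100 reads in either library (-0.92 ± 0.115 and -1.49 ± 0.129). The median of this list was 0.05 in Cx and -0.08 in M.

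Of the partners of R7 proteins, 3 were measured and none was called in Cx or M, too few to set against the shares of all genes given above. Gnb5 was highest, at 0.36 ± 0.040 in Cx and 0.66 ± 0.045 in M, where the correction for GC content and length took it to 0.87, past the threshold. Rgs7bp, the membrane anchor of R7 dimers, was lowest in Cx (-0.06 ± 0.028), and Gpr158, a receptor that binds Rgs7, lowest in M (0.06 ± 0.031). Among 7 activators and GoLoco proteins, none was called in Cx, where the ratios ran from Rap1gap (-0.44 ± 0.020) to Gpsm3 (0.55 ± 0.208). With the correction Rap1gap reached -0.76 in Cx. In M 1 was called, Pcp2, a GoLoco protein with 40 and 15 reads (1.05 ± 0.437), which falls outside the rule for naming and was chosen after its value was seen. Above that read limit, the ratios in M ran from Ric8b (-0.60 ± 0.054) to Rap1gap (0.58 ± 0.024).

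Likewise, none of 4 measured receptor kinases with an RGS homology domain was called in Cx or M, which is too few to set against those shares, with Grk2 highest (0.52 ± 0.024 and 0.44 ± 0.027) and Grk5 lowest (0.08 ± 0.137 and -0.39 ± 0.147). Among 3 measured GIRK channels, the potassium channels opened by beta-gamma subunits, Kcnj5 was down-regulated in Cx and M. It had 28 reads in CxH and 40 in MH, compared with 257 in CxWT and 221 in MWT (log2 -3.39 ± 0.287 in Cx and -2.83 ± 0.248 in M), so that CxH and MH were far below CxWT and MWT. Kcnj9 was the highest of the channels, with 0.45 ± 0.036 in Cx and 0.79 ± 0.043 in M, where it was up-regulated. Corrected for GC content and length, Kcnj9 was at 0.16 and 0.31, no longer called, and below Kcnj3 (0.61 and 0.56).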

How the data were processed

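The authors sequenced polyA RNA of 4 pools of 7 mice on a SOLiD 3 Plus instrument and aligned the reads to mm9 with PASS 2.10, allowing 2 mismatches and no gap. The deposited counts are reads aligned to 1 gene, kept for genes with more than 50% of the length covered. The annotation, and whether strand was used in counting, are not given in the sources used here.

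RPM used the aligned reads that the study gives for each library. Counts of 0 were taken as 1 in ratios only. All 12700 genes were tested, 12690 of them with a symbol by Entrez ID. Positions (mm9), GC content and length came from GENCODE vM1, with 12423 genes matched, and promoters from RefSeq (GRCm38.p6, 9 of 10 members). Intervals are Clopper-Pearson and cover counting error only. Reads without molecular identifiers are not independent molecules.

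The members and lists were chosen with earlier results of these data known. All members, all other Rgs genes, the highest and lowest gene of each pathway list with at least 100 reads in either library, and the 3 nearest patterns of the 3 widest-ranging members are named. Marker lists were cortical excitatory, midbrain and diencephalon, hippocampal, striatal, microglia, activated microglia, pericyte and endothelial, interneuron, oligodendrocyte and astrocyte. Alternatives were column totals, TMM (edgeR 4.0.16) and DESeq2 1.42.0 size factors as scaling, 0.5 added to every count, at least 100 reads in either library, a log2 threshold of 1, an exact test of edgeR with an assumed coefficient of variation of 0.2, and a correction for GC content and length. Scripts ran in Python 3.11.15 and R 4.3.3 and were tested on simulated data.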

Additional observations from a re-analysis of the deposited data

Results flagged for a closer look

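Among Ids, the members and the other genes named by the rule, 3 had ratios between labelled genotypes of opposite sign in Cx and M, beyond counting error in each. Of the pathway genes outside that rule, Gna12 (0.31 ± 0.043 and -0.25 ± 0.051) and Gngt2 (0.70 ± 0.220 and -0.47 ± 0.224) did so too, which were chosen after their values were seen. Corrected for GC content and length, Gna12 was at 0.02 in Cx and -0.75 in M, and Gngt2 at 0.63 and -0.34. Whether Cx and M differ was not tested, since each condition had 1 library. For Ids it was -1.39 ± 0.024 in Cx but 1.24 ± 0.025 in M on the log2 scale, a gap of -2.63. For Rgs7bp it was -0.06 ± 0.028 in Cx and 0.38 ± 0.030 in M, a gap of -0.44, and corrected for GC content and length 0.16 and 0.54, of the same sign. For Rap1gap it was -0.44 ± 0.020 in Cx and 0.58 ± 0.024 in M, a gap of -1.02, and corrected for GC content and length the ratios were -0.76 and -0.03, of the same sign. Among the members, Rgs7 changed sign within counting error.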

How the results depend on the processing

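No paired analysis was possible because each condition has 1 library, and for the same reason no replicate could be left out. The members called numbered 5 in Cx, 5 in M, and 0 in both comparisons labelled as areas. With a log2 threshold of 1, 3 were called in Cx (Rgs14, Rgs16 and Rgs17), since Rgs4 and Rgs12 lie between the thresholds. The other counts stayed within 1.5 times under the alternatives run. With the exact test, Rgs4 was not called in Cx. With the correction for GC content and length, Rgs8 (-0.73) was added in Cx, and in M Rgs4 (0.90) was called and Rgs10 (-0.70) was not. Of 300 ratios of members recomputed under 5 settings, 236 stayed within their counting interval, 64 moved, 39 of these under that correction, and 0 called ratios changed sign. Of the ratios that were not called, those between genotypes changed sign under at least 1 setting for Rgs2 and Rgs7, and those between areas for Rgs2, Rgs4, Rgs6, Rgs7, Rgs8, Rgs14 and Rgs17.

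Over all genes, up- and down-regulated calls in CxH vs. CxWT went from 1201 and 1457 to 1447 and 1135 with TMM factors and 1429 and 1150 with DESeq2 size factors, that is from 45.2% up to 56.0% and 55.4%, and in MH vs. MWT from 49.1% up to 56.1% and 56.3%. The share called up went from 69.6% to 58.4% in CxH vs. MH and from 72.0% to 55.2% in CxWT vs. MWT with column totals, and in the latter to 61.2% with the GC and length correction. With a threshold of 1 the calls were 691 and 710 in Cx, 869 and 773 in M (from 1556 and 1614), 109 and 34 in CxH vs. MH (from 309 and 135) and 194 and 101 in CxWT vs. MWT (from 690 and 268). In these last 2 pairs they were 181 and 111, and 233 and 148, with the correction, and 151 and 40, and 359 and 128, with the exact test. The median of all genes shifted by over 0.1 in CxH vs. MWT with column totals (-0.11) and in MH vs. CxWT with TMM (0.11) and DESeq2 factors (0.11).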

Other observations

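In the list of interneuron markers, Gad1, Gad2 and Pvalb were lower in CxH and MH than in CxWT and MWT, and Sst was higher (91.5 and 67.6 RPM, against 46.4 and 34.3 RPM). Gad1 and Gad2 are not limited to interneurons, and had 404 and 274 RPM in CxWT. The 4 markers of that list summed to 512 RPM in CxH and 498 RPM in MH, against 762 RPM in CxWT and 847 RPM in MWT. The 4 oligodendrocyte markers summed to 4177 and 4357 RPM in CxH and MH, against 8030 and 6340 RPM in CxWT and MWT. The 4 astrocyte markers summed to 1251 RPM in CxH and 1328 RPM in MWT, against 904 RPM in CxWT and 929.5 RPM in MH, and of the 4 only Gfap had this order (603 and 555 RPM, against 280.1 and 253 RPM).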
